A study of Homo sapiens with 13 samples.

Results

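The genes described here are those of the interferon response, together with the interferon regulatory factor (IRF) and signal transducer and activator of transcription (STAT) families, in myeloma cells in which IRF4 was knocked down. They were chosen by symbol: the IFI, IFIT, IFITM, ISG, OAS, MX, GBP, IRF, STAT, JAK, SOCS, TRIM and PARP families, the interferon receptor genes, SP100 and SP110, and EIF2AK2, PML and ADAR, without IRF4 itself. Of 66 such genes with any value, 59 had a feature with values on 7 or more of the 13 arrays, and these make up the set, out of 3841 named genes that met the same minimum. The rule used symbols and the number of arrays with a value, not the ratios, but it was set with earlier results of these data known. They comprise 20 antiviral effectors, 8 TRIM genes, 7 PARP genes, 6 receptors and kinases, 5 IRFs, 5 STATs, 5 SOCS genes and 3 nuclear body genes.

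The study used Lymphochip spotted cDNA arrays, each hybridised with 2 RNAs: that of a myeloma line carrying a doxycycline-inducible hairpin against IRF4, in Cy5, and that of the same line carrying a luciferase hairpin (shluc), in Cy3. Every value is therefore a log2 ratio of IRF4 hairpin over control hairpin, and at each time the control cells carried the luciferase hairpin and had received the same doxycycline. In KMS12 cells the IRF4 hairpins labelled shi_1332, shi_1332b and shi_2046 each gave a series that began without doxycycline and went on with 20 ng/ml. Series 1332 was sampled at days 3, 5 and 7, series 1332b at days 2 and 4, and series 2046 at days 2 and 4. The labels do not say whether shi_1332 and shi_1332b are the same hairpin, so the 3 series may hold fewer than 3 hairpins. The KMS12 groups are the uninduced state (3 arrays), days 2-3 (3 arrays), days 4-5 (3 arrays) and day 7 (1 array). Hairpin 2046 at day 4 was also measured in H929 cells (2 repeat arrays) and SKMM1 cells (1 array), both without an uninduced array. KMS12, H929 and SKMM1 are established human myeloma lines, so plasma cells without other cells of the marrow, and nothing in the labels says that the series or repeats were separate cultures. The p-values therefore measure the spread between these arrays.

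Interferons bind receptors at the cell surface whose attached JAK kinases phosphorylate STAT proteins. STATs, in part together with IRF9, enter the nucleus and turn on interferon-stimulated genes, whose promoters carry the interferon-stimulated response element. Many of those genes encode proteins that block viruses, and SOCS proteins damp the kinases in a feedback loop. IRF4 belongs to the same DNA-binding family as IRF9 but is made in lymphoid cells, and myeloma cells are known to depend on it. IRF4 binds such elements weakly by itself and binds composite sites together with ETS factors.

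The response element is visible in the RefSeq promoters (GRCh38.p14, from 250 bases before to 50 bases after the gene start) of several effectors that lead the values below, though not of all. Its core was searched on both strands as GAAANNGAAA. Shown are 60 bases of each promoter on the strand of the gene, 5′ to 3′, with the core in capitals, which appears as its reverse complement where it lies on the other strand. IFITM1, IFITM3, ISG15, EIF2AK2 and IFIT1 are shown because their values lead what follows. MX1 is shown as a classical interferon target whose values, averaged over its features, stayed near 0.
IFITM1 (chr11:313992-314051, + strand): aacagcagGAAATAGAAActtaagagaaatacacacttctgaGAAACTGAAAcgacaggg
IFITM3 (chr11:320870-320929, − strand): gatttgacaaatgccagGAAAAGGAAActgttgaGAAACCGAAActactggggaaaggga
ISG15 (chr1:1013362-1013421, + strand): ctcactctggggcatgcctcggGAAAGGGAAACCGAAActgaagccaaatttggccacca
EIF2AK2 (chr2:37156952-37157011, − strand): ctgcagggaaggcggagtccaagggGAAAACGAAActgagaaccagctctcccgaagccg
IFIT1 (chr10:89392488-89392547, + strand): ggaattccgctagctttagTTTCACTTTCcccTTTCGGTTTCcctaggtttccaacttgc
MX1 (chr21:41420544-41420603, + strand): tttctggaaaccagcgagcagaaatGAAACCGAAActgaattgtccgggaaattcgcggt
IFITM1, IFITM3, ISG15 and IFIT1 each hold the core 2 times in the window shown, and in ISG15 the 2 matches overlap. EIF2AK2 and MX1 hold it 1 time. Promoters were found for 44 of the 59 genes. The core stood in 16 of them (36.4%), against 996 of all 27305 promoters (3.65%). IFI35 and OAS1, which also stand among the higher effectors at days 2-3, do not have these letters in the window. An ETS-IRF composite core, GGAANNGAAA, stood in 6 of the 44 (13.6%), namely IFI35, OAS1, PARP14, SP110, STAT4 and TRIM34, against 2.84% of all promoters. A STAT site core, TTCNNNGAA, stood in 7 of the 44 (15.9%), against 7.88% of all promoters. The composite core and the response element core differ in 1 fixed base, so the same bases cannot match both in 1 orientation. A match describes the letters of the promoter and does not show binding.

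IRF4 itself lay below control on every induced array. In series 1332 it stood at 121% of control without doxycycline, 43.2% at day 3, 63.8% at day 5 and 61.7% at day 7. In series 1332b it stood at 109% uninduced, 29.1% at day 2 and 56.8% at day 4. In series 2046 it stood at 112% uninduced, 54.2% at day 2 and 59.5% at day 4. In H929 it stood at 28.9% (repeat 1) and 25.7% (repeat 2), in SKMM1 at 24.6%, and the KMS12 array nearest to these was day 2 of series 1332b. All 3 IRF4 features were lower in both windows. The log2 difference from uninduced was -1.48 ± 0.24 (SE, limma adjusted p = 0.127) at days 2-3 and -0.93 ± 0.24 (SE, limma adjusted p = 0.717) at days 4-5. Even the targeted gene therefore did not pass the adjusted threshold of 0.05 across all genes.

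The arrays carried values for 7140 to 14228 features each. A ratio gives no level, so the plasma cell identity of the lines could not be checked against the markers, of which 10 of 12 listed entered the fit and 9 or 10 had a value on each array. Arrays were centred on the median of 6879 features, and without that step the median difference of the set would be 0.014 in place of 0.171 at days 2-3 and -0.02 in place of 0.125 at days 4-5. All changes are therefore relative to the bulk of measured genes. Genes with few values read low before induction: those with values on 7 to 9 arrays had a median log2 ratio of -0.31 on the uninduced arrays (all genes) and -0.361 (12 genes of the set, all 12 below 0), against 0.022 for all genes with values on all 13 arrays. With the centring done separately for features with few, more and all values, the difference at days 2-3 was 0.80 in place of 0.79 for IFITM1, 0.65 in place of 0.73 for STAT5A and 0.31 in place of 0.82 for PARP10. At days 4-5 it was 0.28 in place of 0.61 for EIF2AK2, 0.54 in place of 1.03 for IFIT1, 0.33 in place of 0.88 for PARP9, 0.47 in place of 0.82 for PARP11 and 0.89 in place of 1.30 for STAT4. Of the set, 34 genes had values on all 13 arrays, and 47 on at least 10.

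**Figure D1:**
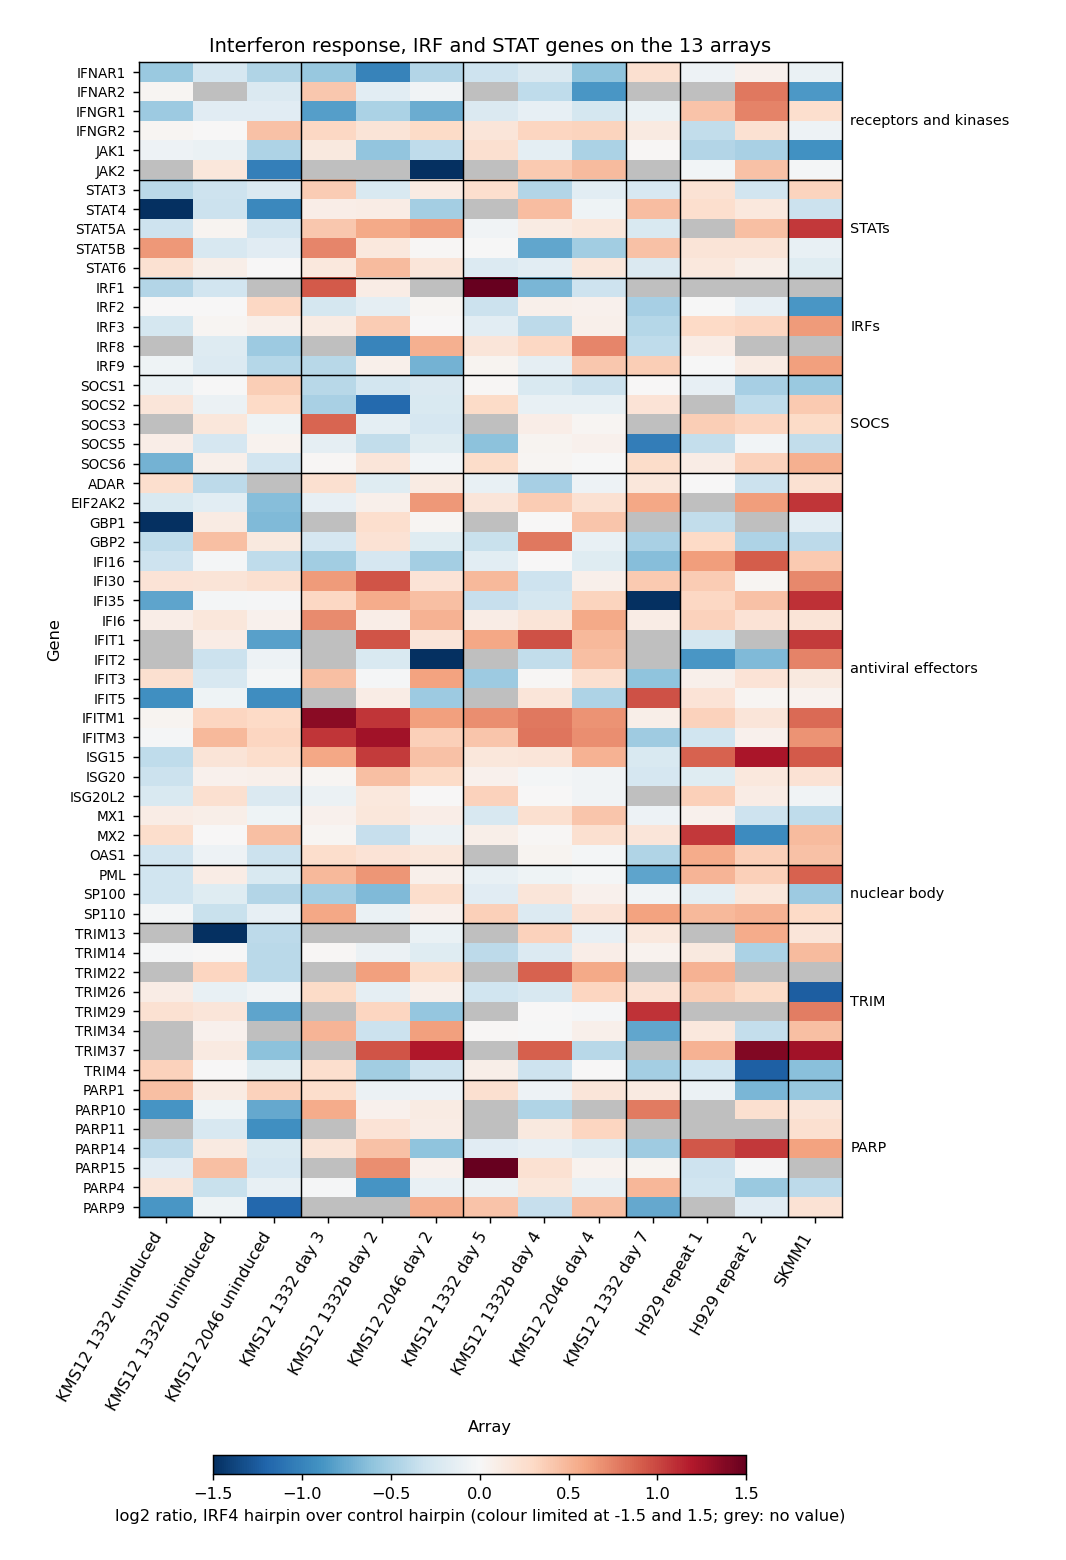
Log2 ratio of IRF4 hairpin over control hairpin (colour) for 59 genes (rows, grouped by role) on 13 arrays (columns, grouped by KMS12 time window and cell line). IFITM1, IFITM3 and ISG15 are red at days 2-3, STAT4 and GBP1 are dark blue on the series 1332 uninduced array, and many of the grey cells without a value lie in series 1332.

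Across the set, most genes had positive differences after induction, as did most genes of the array. At days 2-3, 39 of 55 genes tested had a positive difference from uninduced, with a median log2 difference of 0.171, against 58.3% of all 5980 genes tested and a median of 0.123. At days 4-5, 41 of 57 were positive, with a median of 0.125, against 63.1% of all genes and a median of 0.121. Among genes with values on all 13 arrays, 21 of 34 of the set were positive at days 2-3, with a median of 0.104, against 50.9% of all such genes and a median of 0.014. At days 4-5, 21 of 34 were positive again, with a median of 0.064, against 46.8% and a median of -0.025. Genes of the set with values on 10 to 12 arrays had a median of 0.426 at days 2-3 (11 genes) against 0.164 for all such genes, and 0.272 at days 4-5 (11 genes) against 0.172. Those with values on 7 to 9 arrays had 0.61 (10 genes) against 0.277, and 0.774 (12 genes) against 0.416. In each class the set's median was thus the higher one in both windows. The 20 antiviral effectors stood highest among the larger roles at days 2-3, with 16 of 20 positive and a median of 0.368, and at days 4-5 their median was 0.187 with 16 of 20 positive again. Both windows share the uninduced arrays.

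No gene of the set passed limma's adjusted p under 0.05 in any of the comparisons within KMS12, and neither did any other gene (0.0% called at days 2-3, at days 4-5, in the mean of both windows and between the windows). Without 1 array, series 2046 at day 2, 427 of 4518 genes (9.45%) passed at days 2-3, among them 1 of 45 of the set (2.22%), IFITM1. At an unadjusted limma p under 0.05, 10 of 55 (18.2%) were higher at days 2-3, where 9.85% of all genes were, and 1 of 55 (1.82%) was lower, where 11.6% were. The 10 were IFI35, IFITM1, IFITM3, ISG15, OAS1, PARP10, PML, STAT4, STAT5A and TRIM37, and the 1 was SOCS2. At days 4-5, 6 of 57 (10.5%) were higher (EIF2AK2, IFIT1, IFITM1, PARP11, PARP9 and STAT4) against 5.67% of all genes, and none was lower against 1.09%. In the mean of both windows, 6 of 54 (11.1%) were higher (EIF2AK2, IFIT1, IFITM1, PARP11, STAT4 and STAT5A) against 8.04%, and none was lower against 5.63%. These counts are small, and only IFITM1 and STAT4 are in all 3 higher lists.

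Another count took the genes whose 3 induced arrays all lay on 1 side of all 3 uninduced arrays. At days 2-3, 7 of 41 genes with all 6 values were wholly higher (EIF2AK2, IFI35, IFITM1, ISG15, OAS1, PARP10 and STAT5A), where 14.3% of all genes were, and SOCS1 and SOCS2 were wholly lower, where 17.6% were. At days 4-5, 3 of 40 were wholly higher (EIF2AK2, IFITM1 and SP100) against 7.38%, and 0 of 40 were wholly lower against 4.91%. Over both windows, EIF2AK2 and IFITM1 were wholly higher as means of their features, 2 of 38 against 2.56% of all genes. Wholly lower were 0 of 38 against 2.91%. In each window the share for higher genes (17.1% and 7.5%) lay near the background, unlike the counts by unadjusted p. Over both windows it was 5.26%, from 2 genes. The share for lower genes at days 2-3 (4.88%) lay below the background.

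The uninduced array of a series varied weakly together with its induced arrays. Each induced array was therefore also set against the uninduced array of its own series, a count added after the values were seen. At days 2-3, 16 of 41 genes (39.0%) were higher in all 3 series, where 27.0% of all genes were, and 10 (24.4%) were lower in all 3, where 29.0% were. At days 4-5, 9 of 40 (22.5%) were higher in all 3, where 19.8% were, and PARP1 and STAT5B (5.0%) were lower, where 13.8% were. Over both windows, 5 of 38 (13.2%) were higher in all 6 pairs, namely EIF2AK2, IFITM1, IFITM3, SP110 and STAT5A, where 7.95% of all genes were. STAT4, without a value at day 5 of series 1332, was higher in its other pairs. PARP1 was lower in all 6 pairs, with log2 differences of -0.17 to -0.43, 1 of 38 (2.63%) where 7.78% of all genes were. The 2 windows share the uninduced arrays, so the 6 pairs are not independent, and with the series as a block no gene passed limma's adjusted threshold.

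**Figure D2:**
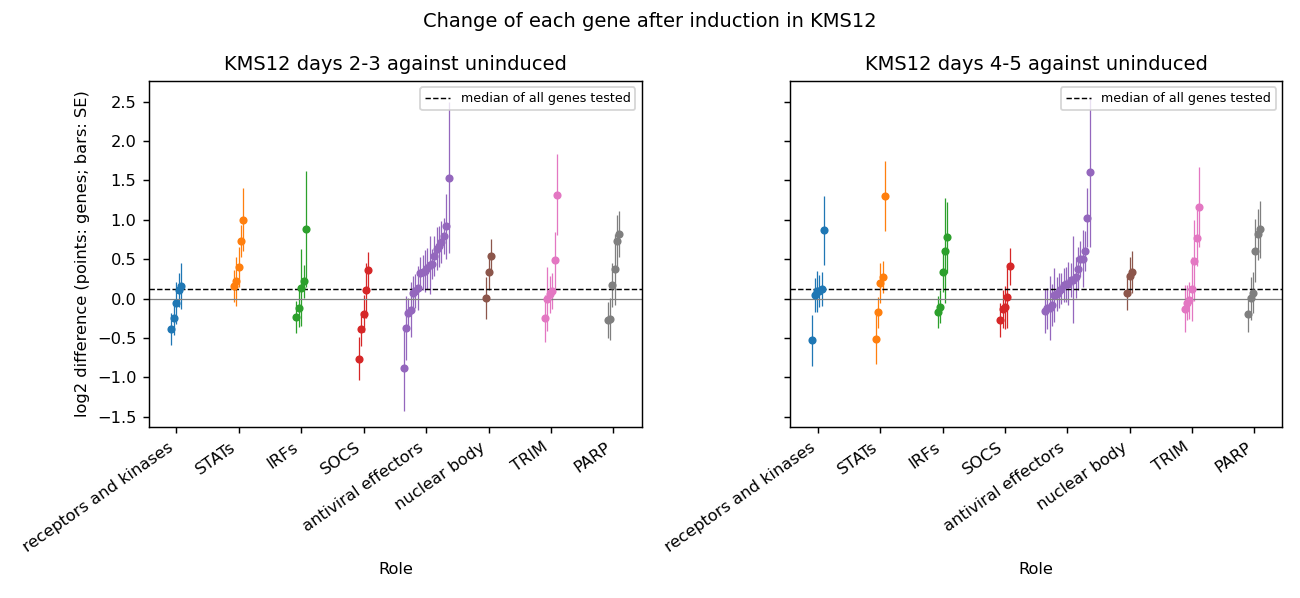
Log2 difference from the uninduced arrays (vertical axis) of each gene of the set (points, with SE bars) by role (horizontal axis), at days 2-3 on the left and days 4-5 on the right, with a dashed line at the median of all genes tested. The effectors spread above the dashed line at days 2-3 (median 0.368), the SOCS genes lie around and below 0 (median -0.191), and no gene of the set passed the adjusted threshold.

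In the values below, KMS12 arrays are given in the order series 1332, 1332b and 2046, H929 arrays as repeat 1 and repeat 2, and each value is a log2 ratio. IFITM1, a membrane protein that blocks the entry of enveloped viruses, was wholly above its uninduced values in both windows. It measured 0.04, 0.33 and 0.30 on the uninduced arrays, 1.36, 1.07 and 0.61 at days 2-3, 0.69, 0.79 and 0.68 at days 4-5, and 0.09 at day 7. As the mean of its features it was above 0 on all 13 arrays, and every array of days 2-3 and 4-5 lay above every uninduced array. In H929, IFITM1 stood at 0.35 and 0.18, and in SKMM1 it stood at 0.85. The mean in KMS12 was 0.221 ± 0.159 uninduced, 1.012 ± 0.376 at days 2-3 and 0.722 ± 0.061 at days 4-5 (SD, n = 3 each), so the spread was widest at days 2-3. The difference from uninduced was 0.79 ± 0.23 (SE, limma adjusted p = 0.129) at days 2-3, 1.73-fold, and 0.50 ± 0.23 (SE, limma adjusted p = 0.721) at days 4-5, 1.42-fold. All 7 IFITM1 features that could be compared were higher, by 0.57 to 1.01 at days 2-3 and by 0.32 to 0.68 at days 4-5. Without the series 2046 array the difference at days 2-3 was 0.99 (limma adjusted p = 0.023, over a range of 0.023 to 0.281 across its alternatives). Day 7 of series 1332 was back near its uninduced value, on 1 array.

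IFITM3, which acts on viruses in endosomes, is nearly identical to IFITM1 over much of its coding sequence, and cDNA spots of either gene can bind the RNA of the other, so these genes are not independent. It measured -0.02, 0.48 and 0.32 on the uninduced arrays, 1.07, 1.26 and 0.36 at days 2-3, 0.42, 0.81 and 0.69 at days 4-5, and -0.54 at day 7. The groups overlapped, since series 2046 read 0.36 at day 2, within the uninduced range. In H929, IFITM3 stood at -0.30 and 0.06, and in SKMM1 it stood at 0.68. Its difference was 0.63 ± 0.27 (SE, limma adjusted p = 0.213) at days 2-3 and 0.38 ± 0.27 (SE, limma adjusted p = 0.769) at days 4-5.

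ISG15, a ubiquitin-like protein joined to other proteins under interferon, measured -0.39, 0.20 and 0.26 on the uninduced arrays, 0.58, 1.05 and 0.43 at days 2-3, 0.17, 0.19 and 0.52 at days 4-5, and -0.23 at day 7. At days 2-3 all 3 arrays lay above the uninduced ones, and by days 4-5 the groups overlapped. In H929, ISG15 stood at 0.89 and 1.22, and in SKMM1 it stood at 0.92. These values lay above those of KMS12 at days 4-5. The difference in KMS12 was 0.66 ± 0.26 (SE, limma adjusted p = 0.18) at days 2-3 and 0.27 ± 0.26 (SE, limma adjusted p = 0.824) at days 4-5. All 3 features were higher in both windows, by 0.62 to 0.73 and by 0.15 to 0.47.

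IFI35, an interferon-induced partner of NMI, measured -0.79, -0.04 and -0.01 on the uninduced arrays, 0.31, 0.56 and 0.45 at days 2-3, -0.35, -0.26 and 0.34 at days 4-5, and -1.89 at day 7. Its days 2-3 arrays all lay above the uninduced ones, and day 7 of series 1332 gave the lowest value of the gene. In H929, IFI35 stood at 0.31 and 0.44, and in SKMM1 it stood at 1.09. The difference was 0.72 ± 0.27 (SE, limma adjusted p = 0.172) at days 2-3 and 0.19 ± 0.27 (SE, limma adjusted p = 0.879) at days 4-5, from 1 feature. EIF2AK2 encodes PKR, the kinase that halts translation when it meets double-stranded RNA. It measured -0.23, -0.16 and -0.63 on the uninduced arrays, -0.12, 0.08 and 0.65 at days 2-3, 0.18, 0.39 and 0.23 at days 4-5, and 0.58 at day 7. Every array of both windows lay above every uninduced array by the mean of its 2 features, but at days 2-3 by neither feature alone. Feature 1 read 0.085 on the uninduced series 1332 array and -0.40 at day 2 of series 1332b. Feature 2 read 0.04 on the uninduced series 1332b array and -0.12 at day 3 of series 1332. In H929, EIF2AK2 stood at 0.63 on repeat 2 alone, and in SKMM1 it stood at 1.07. The difference was 0.54 ± 0.25 (SE, limma adjusted p = 0.246) at days 2-3 and 0.61 ± 0.25 (SE, limma adjusted p = 0.717) at days 4-5.

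IFIT1, which binds viral RNA that lacks a host cap, had values on only 9 arrays. It measured no value, 0.11 and -0.82 on the uninduced arrays, no value, 0.94 and 0.18 at days 2-3, 0.58, 0.95 and 0.49 at days 4-5, and no value at day 7. In H929, IFIT1 stood at -0.26 on repeat 1 alone, and in SKMM1 it stood at 1.05. The H929 value lay below 0 while all 5 KMS12 values of days 2-5 and the SKMM1 value were above it. The difference was 0.92 ± 0.41 (SE, limma adjusted p = 0.245) at days 2-3 and 1.03 ± 0.38 (SE, limma adjusted p = 0.717) at days 4-5. OAS1, the synthetase that activates RNase L, measured -0.29, -0.08 and -0.32 on the uninduced arrays, 0.27, 0.20 and 0.17 at days 2-3, no value, 0.04 and -0.03 at days 4-5, and -0.45 at day 7. Its days 2-3 arrays lay above all uninduced arrays, by a difference of 0.44 ± 0.19 (SE, limma adjusted p = 0.217), though 1 of its 3 features had the other sign.

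**Figure D3:**
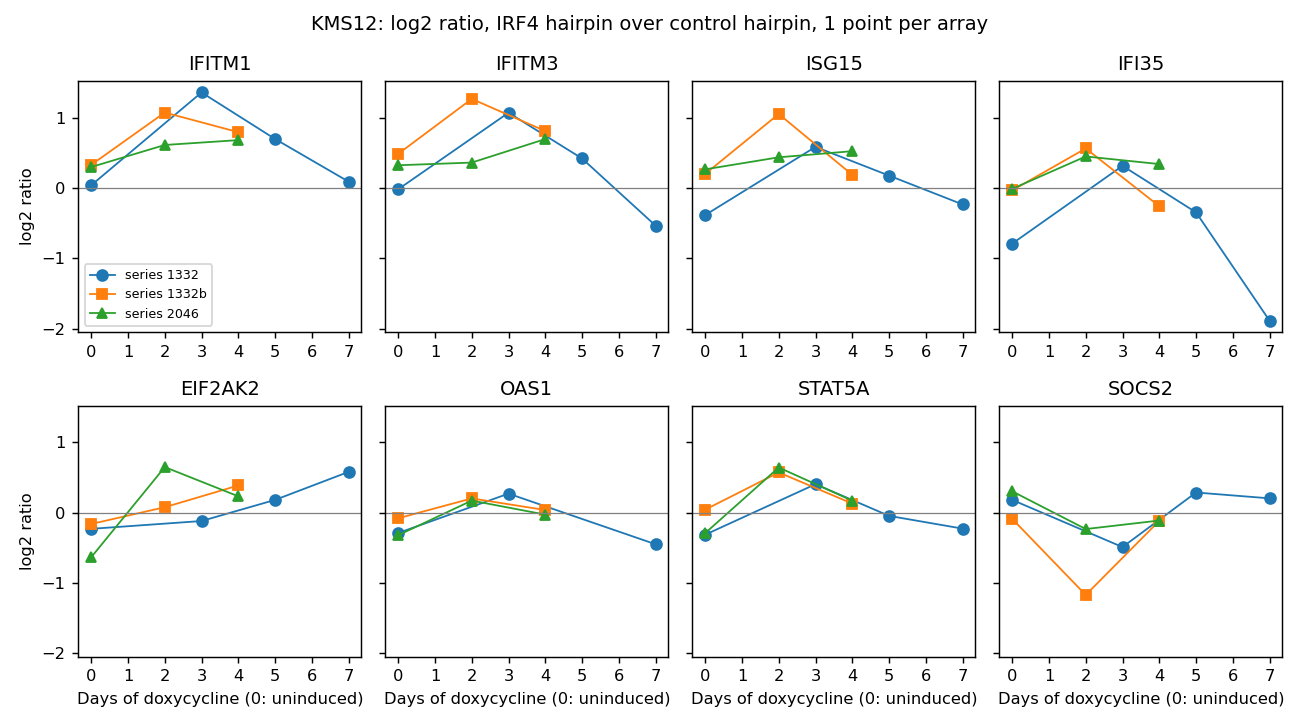
Log2 ratio of IRF4 hairpin over control hairpin (vertical axis) against days of doxycycline (horizontal axis, 0 for uninduced) for 8 genes in the 3 KMS12 series (colours), 1 point per array. IFITM1 peaks at 1.36 on day 3 in series 1332 and 1.07 on day 2 in series 1332b, and SOCS2 is lowest at day 2 or 3 in each series.

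The other 13 antiviral effectors had differences from -0.88 (IFIT2) to 1.54 (GBP1) at days 2-3 and from -0.16 (ADAR) to 1.61 (GBP1) at days 4-5. GBP1, an interferon-gamma-induced GTPase, owed its size to 1 uninduced array of series 1332 at -3.64, next to 0.12 and -0.66 on the other uninduced arrays, and its SE was 0.96. IFI6, a mitochondrial protein, was above 0 on all 13 arrays as the mean of its features, with a low of 0.06 and a high of 0.71. Its difference was 0.33 ± 0.22 (SE, limma adjusted p = 0.386) at days 2-3. MX1, the GTPase that traps viral ribonucleoproteins and a textbook readout of interferon, gave 0.06 ± 0.22 (SE, limma adjusted p = 0.878) at days 2-3 and 0.10 ± 0.22 (SE, limma adjusted p = 0.93) at days 4-5. Its 13 values lay between -0.38 and 0.42, as means of 3 features that disagreed on some arrays. The features read -0.85, 0.56 and -0.63 on H929 repeat 2 and -1.08, 0.21 and -0.27 in SKMM1. MX2 gave -0.38 ± 0.41 (SE, limma adjusted p = 0.597) at days 2-3, with all 3 features below 0. ISG20, an RNA exonuclease, gave 0.32 ± 0.21 (SE, limma adjusted p = 0.385), IFI30, a lysosomal thiol reductase, 0.38 ± 0.26 (SE, limma adjusted p = 0.404), and IFIT3 0.35 ± 0.27 (SE, limma adjusted p = 0.438) at days 2-3. IFIT5 gave 0.43 ± 0.36 (SE, limma adjusted p = 0.503), ISG20L2 0.10 ± 0.22 (SE, limma adjusted p = 0.804), ADAR, which edits double-stranded RNA, 0.13 ± 0.28 (SE, limma adjusted p = 0.797), GBP2 -0.14 ± 0.35 (SE, limma adjusted p = 0.821), and IFIT2 -0.88 ± 0.55 (SE, limma adjusted p = 0.368) at days 2-3. The DNA sensor IFI16 is described with the H929 arrays below.

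On all 10 induced arrays with a value on each, IFI6 and IFITM1 were above 0 throughout, 2 of 36 genes, where 2.24% of all genes were. None of the 36 was below 0 throughout, where 2.24% of all genes were. IFI6 and IFITM1 were above 0 on the uninduced arrays as well. All this holds for the means of their features, not for each feature. Single IFITM1 features ran from -0.24 to 0.83 on H929 repeat 2 and from -0.40 to 0.75 at day 7 of series 1332. An IFI6 feature read -0.61 at day 2 of series 1332b.

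The receptors and kinases gave no common direction. IFNAR1, which forms the type I interferon receptor with IFNAR2, measured -0.55, -0.25 and -0.46 on the uninduced arrays, -0.56, -0.999 and -0.44 at days 2-3, -0.32, -0.21 and -0.60 at days 4-5, and 0.24 at day 7. It was below 0 on all 9 KMS12 arrays up to day 5, the uninduced ones included. In H929, IFNAR1 stood at -0.08 and 0.07, and in SKMM1 it stood at -0.10. Its difference was -0.25 ± 0.22 (SE, limma adjusted p = 0.518) at days 2-3 and 0.04 ± 0.22 (SE, limma adjusted p = 0.97) at days 4-5. IFNAR2, with 1 feature, measured 0.03, no value and -0.22 on the uninduced arrays, 0.40, -0.16 and -0.05 at days 2-3, no value, -0.38 and -0.88 at days 4-5, and no value at day 7. In H929, IFNAR2 stood at 0.79 on repeat 2 alone, and in SKMM1 it stood at -0.86. The H929 and SKMM1 values lay on opposite sides of 0. Its difference was 0.16 ± 0.29 (SE, limma adjusted p = 0.766) at days 2-3 and -0.53 ± 0.32 (SE, limma adjusted p = 0.733) at days 4-5.

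IFNGR1, the ligand-binding chain of the interferon-gamma receptor, measured -0.54, -0.17 and -0.17 on the uninduced arrays, -0.83, -0.47 and -0.75 at days 2-3, -0.22, -0.12 and -0.27 at days 4-5, and -0.10 at day 7. All 10 KMS12 arrays were below 0, whereas the H929 and SKMM1 arrays were above it. In H929, IFNGR1 stood at 0.43 and 0.75, and in SKMM1 it stood at 0.25. Its difference was -0.39 ± 0.21 (SE, limma adjusted p = 0.291) at days 2-3 and 0.09 ± 0.21 (SE, limma adjusted p = 0.929) at days 4-5, but its 2 features differed at days 2-3, at -0.98 and 0.50. IFNGR2, the signalling chain, measured 0.03, 0.01 and 0.44 on the uninduced arrays, 0.31, 0.20 and 0.29 at days 2-3, 0.18, 0.32 and 0.33 at days 4-5, and 0.13 at day 7. All 10 KMS12 values were above 0 and the groups overlapped. In H929, IFNGR2 stood at -0.37 and 0.22, and in SKMM1 it stood at -0.08. Its difference was 0.11 ± 0.22 (SE, limma adjusted p = 0.785) at days 2-3 and 0.12 ± 0.22 (SE, limma adjusted p = 0.914) at days 4-5.

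JAK1, the kinase shared by all interferon receptors, measured -0.08, -0.10 and -0.47 on the uninduced arrays, 0.15, -0.59 and -0.38 at days 2-3, 0.24, -0.15 and -0.47 at days 4-5, and 0.01 at day 7. In H929, JAK1 stood at -0.44 and -0.48, and in SKMM1 it stood at -0.91. The KMS12 groups overlapped throughout, while the H929 and SKMM1 arrays were all below 0. Its difference was -0.06 ± 0.26 (SE, limma adjusted p = 0.906) at days 2-3 and 0.09 ± 0.26 (SE, limma adjusted p = 0.949) at days 4-5. JAK2, the kinase of the interferon-gamma receptor, had 8 values in all. It measured no value, 0.17 and -1.03 on the uninduced arrays, no value, no value and -2.17 at days 2-3, no value, 0.40 and 0.48 at days 4-5, and no value at day 7. In H929, JAK2 stood at -0.04 and 0.44, and in SKMM1 it stood at -0.03. With 1 value at days 2-3 it could be tested only at days 4-5, where the difference was 0.86 ± 0.44 (SE, limma adjusted p = 0.721).

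All 5 STAT genes had positive differences at days 2-3, with a median of 0.397, and 3 of 5 at days 4-5. STAT5A, a transducer of cytokine signals in lymphocytes, measured -0.31, 0.04 and -0.29 on the uninduced arrays, 0.40, 0.57 and 0.64 at days 2-3, -0.05, 0.13 and 0.17 at days 4-5, and -0.23 at day 7. Every days 2-3 array lay above every uninduced array, and both features were higher. In H929, STAT5A stood at 0.45 on repeat 2 alone, and in SKMM1 it stood at 1.06. The difference was 0.73 ± 0.20 (SE, limma adjusted p = 0.129) at days 2-3, 1.65-fold, and 0.27 ± 0.20 (SE, limma adjusted p = 0.774) at days 4-5. STAT5B, its close relative with a highly similar sequence, measured 0.65, -0.24 and -0.17 on the uninduced arrays, 0.73, 0.16 and 0.02 at days 2-3, -0.01, -0.77 and -0.52 at days 4-5, and 0.43 at day 7. In each series the days 4-5 value was the lower one of the induced pair, and below 0. In H929, STAT5B stood at 0.20 and 0.20, and in SKMM1 it stood at -0.11. Its difference was 0.22 ± 0.31 (SE, limma adjusted p = 0.688) at days 2-3 and -0.52 ± 0.31 (SE, limma adjusted p = 0.73) at days 4-5.

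STAT4, known for interleukin-12 signalling in T and NK cells, had the largest difference of the STATs but rested on sparse features. It measured -2.02, -0.33 and -0.96 on the uninduced arrays, 0.10, 0.11 and -0.51 at days 2-3, no value, 0.47 and -0.07 at days 4-5, and 0.47 at day 7. In H929, STAT4 stood at 0.25 and 0.16, and in SKMM1 it stood at -0.32. The value of -2.02 came from 1 of its 2 features, and the other had no value in series 1332. Its difference was 1.00 ± 0.40 (SE, limma adjusted p = 0.191) at days 2-3 and 1.30 ± 0.45 (SE, limma adjusted p = 0.717) at days 4-5. The single feature that could be compared at days 2-3 gave 0.01. At days 4-5 that feature gave 0.41 and the other 1.59, each with values on 9 arrays.

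STAT3, the transducer of interleukin-6, a growth factor of myeloma cells, measured -0.40, -0.31 and -0.21 on the uninduced arrays, 0.38, -0.23 and 0.12 at days 2-3, 0.26, -0.43 and -0.15 at days 4-5, and -0.24 at day 7. In H929, STAT3 stood at 0.22 and -0.29, and in SKMM1 it stood at 0.33. The groups overlapped, and the difference was 0.40 ± 0.25 (SE, limma adjusted p = 0.371) at days 2-3 and 0.20 ± 0.25 (SE, limma adjusted p = 0.868) at days 4-5. STAT6, the transducer of interleukin-4, measured 0.23, 0.09 and 0.01 on the uninduced arrays, 0.15, 0.47 and 0.18 at days 2-3, -0.21, -0.16 and 0.17 at days 4-5, and -0.22 at day 7. In H929, STAT6 stood at 0.16 and 0.08, and in SKMM1 it stood at -0.18. Its difference was 0.16 ± 0.20 (SE, limma adjusted p = 0.656) at days 2-3 and -0.18 ± 0.20 (SE, limma adjusted p = 0.855) at days 4-5, small on either side of 0.

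The IRF genes other than IRF4 differed in direction. IRF1, an activator induced by interferon gamma, had 7 values, all in KMS12. It measured -0.44, -0.29 and no value on the uninduced arrays, 0.92, 0.11 and no value at days 2-3, 1.71, -0.68 and -0.31 at days 4-5, and no value at day 7. Series 1332 reached 1.71 at day 5 while the other series were below 0 in that window. Its difference was 0.88 ± 0.73 (SE, limma adjusted p = 0.493) at days 2-3 and 0.61 ± 0.67 (SE, limma adjusted p = 0.853) at days 4-5. IRF2, a relative that can repress the same sites, measured 0.01, 0.01 and 0.31 on the uninduced arrays, -0.27, -0.13 and 0.03 at days 2-3, -0.33, 0.08 and 0.07 at days 4-5, and -0.49 at day 7. In H929, IRF2 stood at 0.00 and -0.12, and in SKMM1 it stood at -0.88. The SKMM1 value was the lowest. Its difference was -0.23 ± 0.21 (SE, limma adjusted p = 0.515) at days 2-3 and -0.17 ± 0.21 (SE, limma adjusted p = 0.861) at days 4-5.

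IRF3, which switches on interferon genes when viral nucleic acid is sensed, measured -0.27, 0.03 and 0.08 on the uninduced arrays, 0.12, 0.38 and 0.00 at days 2-3, -0.15, -0.39 and 0.08 at days 4-5, and -0.42 at day 7. In H929, IRF3 stood at 0.30 and 0.33, and in SKMM1 it stood at 0.64. All 6 features were higher at days 2-3, by 0.07 to 0.41, and 3 of 6 at days 4-5. Its difference was 0.22 ± 0.21 (SE, limma adjusted p = 0.551) at days 2-3 and -0.10 ± 0.21 (SE, limma adjusted p = 0.921) at days 4-5. IRF8, the closest relative of IRF4 and a factor of B and myeloid cells, had 9 values. It measured no value, -0.20 and -0.54 on the uninduced arrays, no value, -0.99 and 0.53 at days 2-3, 0.19, 0.31 and 0.73 at days 4-5, and -0.39 at day 7. In H929, IRF8 stood at 0.11 on repeat 1 alone, and in SKMM1 it had no value. Series 1332b and 2046 lay on opposite sides of 0 at day 2, and both were above their uninduced values at day 4. Its difference was 0.13 ± 0.49 (SE, limma adjusted p = 0.886) at days 2-3 and 0.78 ± 0.45 (SE, limma adjusted p = 0.73) at days 4-5. IRF9, the DNA-binding partner of the STATs in the type I response, measured -0.06, -0.21 and -0.43 on the uninduced arrays, -0.42, 0.08 and -0.70 at days 2-3, 0.04, -0.14 and 0.41 at days 4-5, and 0.37 at day 7. In H929, IRF9 stood at 0.00 and 0.12, and in SKMM1 it stood at 0.62. Its difference was -0.12 ± 0.25 (SE, limma adjusted p = 0.8) at days 2-3 and 0.34 ± 0.25 (SE, limma adjusted p = 0.774) at days 4-5.

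Of the SOCS genes, SOCS1 and SOCS2 lay lower at days 2-3. SOCS2, which damps growth hormone and STAT5 signalling, measured 0.18, -0.09 and 0.30 on the uninduced arrays, -0.49, -1.17 and -0.23 at days 2-3, 0.28, -0.12 and -0.11 at days 4-5, and 0.20 at day 7. Each days 2-3 array was below each uninduced array, and both features were lower. In H929, SOCS2 stood at -0.39 on repeat 2 alone, and in SKMM1 it stood at 0.39. The difference was -0.76 ± 0.28 (SE, limma adjusted p = 0.17) at days 2-3, 1.7-fold lower, and -0.11 ± 0.28 (SE, limma adjusted p = 0.937) at days 4-5. SOCS1, the main brake on interferon signalling, measured -0.10, -0.01 and 0.37 on the uninduced arrays, -0.42, -0.27 and -0.21 at days 2-3, 0.02, -0.23 and -0.33 at days 4-5, and 0.00 at day 7. In H929, SOCS1 stood at -0.13 and -0.50, and in SKMM1 it stood at -0.55. Here too each days 2-3 array was below each uninduced one, with a difference of -0.39 ± 0.22 (SE, limma adjusted p = 0.309), and days 4-5 gave -0.27 ± 0.22 (SE, limma adjusted p = 0.791).

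SOCS3, induced by interleukin-6, measured no value, 0.17 and -0.07 on the uninduced arrays, 0.87, -0.15 and -0.26 at days 2-3, no value, 0.10 and 0.03 at days 4-5, and no value at day 7. In H929, SOCS3 stood at 0.37 and 0.32, and in SKMM1 it stood at 0.28. Its difference was 0.10 ± 0.35 (SE, limma adjusted p = 0.875) at days 2-3 and 0.01 ± 0.38 (SE, limma adjusted p = 0.993) at days 4-5. SOCS5 measured 0.09, -0.26 and 0.05 on the uninduced arrays, -0.13, -0.37 and -0.18 at days 2-3, -0.62, 0.04 and 0.06 at days 4-5, and -1.04 at day 7. In H929, SOCS5 stood at -0.36 and -0.04, and in SKMM1 it stood at -0.37. Its low at day 7 was 1 array, and its difference was -0.19 ± 0.24 (SE, limma adjusted p = 0.652) at days 2-3 and -0.14 ± 0.24 (SE, limma adjusted p = 0.908) at days 4-5. SOCS6 measured -0.71, 0.07 and -0.28 on the uninduced arrays, 0.01, 0.19 and -0.04 at days 2-3, 0.27, 0.03 and 0.00 at days 4-5, and 0.28 at day 7. In H929, SOCS6 stood at 0.11 and 0.35, and in SKMM1 it stood at 0.54. Its difference was 0.36 ± 0.23 (SE, limma adjusted p = 0.375) at days 2-3 and 0.41 ± 0.23 (SE, limma adjusted p = 0.726) at days 4-5, with the series 1332 uninduced array well below the rest.

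The nuclear body genes are interferon targets that build a nuclear structure with antiviral roles. PML, its scaffold, gave 0.55 ± 0.22 (SE, limma adjusted p = 0.188) at days 2-3, with all 3 features higher, and 0.07 ± 0.22 (SE, limma adjusted p = 0.95) at days 4-5. SP110 gave 0.34 ± 0.24 (SE, limma adjusted p = 0.412) and 0.28 ± 0.24 (SE, limma adjusted p = 0.798) in the same windows. SP100 gave 0.01 ± 0.26 (SE, limma adjusted p = 0.991) and 0.33 ± 0.26 (SE, limma adjusted p = 0.788), but its 5 features ran from -0.75 to 1.11 at days 2-3, so its mean describes no single feature.

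The TRIM genes encode ubiquitin ligases, only some of them interferon targets. TRIM37, with 1 feature and 9 values, gave 1.32 ± 0.51 (SE, limma adjusted p = 0.195) at days 2-3 and 0.48 ± 0.51 (SE, limma adjusted p = 0.846) at days 4-5. TRIM22, an antiviral interferon target, had 7 values and gave 0.49 ± 0.35 (SE, limma adjusted p = 0.443) and 0.77 ± 0.35 (SE, limma adjusted p = 0.721). TRIM13 could be tested at days 4-5 only, where it gave 1.16 ± 0.50 (SE, limma adjusted p = 0.721), and its uninduced series 1332b array stood at -1.71. TRIM14, TRIM26, TRIM29 and TRIM4 had differences between -0.25 and 0.12 in both windows. TRIM34, measured on 1 uninduced array, had no contrast against the uninduced group.

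The PARP genes include mono-ADP-ribosyl transferases induced by interferon. PARP9, the partner of DTX3L, measured -0.87, -0.06 and -1.18 on the uninduced arrays, no value, no value and 0.54 at days 2-3, 0.42, -0.35 and 0.45 at days 4-5, and -0.76 at day 7. In H929, PARP9 stood at -0.17 on repeat 2 alone, and in SKMM1 it stood at 0.21. Its difference was 0.88 ± 0.37 (SE, limma adjusted p = 0.72) at days 4-5, with series 1332 and 2046 higher than their uninduced arrays and series 1332b lower. PARP10 measured -0.88, -0.06 and -0.77 on the uninduced arrays, 0.56, 0.06 and 0.12 at days 2-3, no value, -0.46 and no value at days 4-5, and 0.78 at day 7. In H929, PARP10 stood at 0.24 on repeat 2 alone, and in SKMM1 it stood at 0.19. The days 2-3 arrays all lay above the uninduced ones, by 0.82 ± 0.30 (SE, limma adjusted p = 0.179), but its 2 features gave 0.19 and 1.26. PARP11 had 7 values and measured no value, -0.24 and -0.92 on the uninduced arrays, no value, 0.20 and 0.11 at days 2-3, no value, 0.15 and 0.32 at days 4-5, and no value at day 7. In H929, PARP11 had no value, and in SKMM1 it stood at 0.25. Its difference was 0.73 ± 0.33 (SE, limma adjusted p = 0.249) at days 2-3 and 0.82 ± 0.33 (SE, limma adjusted p = 0.718) at days 4-5. PARP15 gave 0.37 ± 0.45 (SE, limma adjusted p = 0.644) at days 2-3, PARP4 -0.26 ± 0.27 (SE, limma adjusted p = 0.581), and PARP1, the DNA repair enzyme that is no interferon target, -0.27 ± 0.23 (SE, limma adjusted p = 0.486).

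Between the windows, with days 4-5 set against days 2-3, 30 of 55 genes of the set were positive with a median of 0.048, against 51.4% of all genes and a median of 0.016. At an unadjusted limma p under 0.05, IFNGR1 and SOCS2 were higher at days 4-5, 2 of 55 against 9.09% of all genes. IFNAR2 and STAT5B were lower, 2 of 55 against 4.71%. The differences were 0.65 ± 0.28 (SE, limma adjusted p = 0.342) for SOCS2, 0.48 ± 0.21 (SE, limma adjusted p = 0.341) for IFNGR1, -0.74 ± 0.31 (SE, limma adjusted p = 0.334) for STAT5B and -0.69 ± 0.29 (SE, limma adjusted p = 0.352) for IFNAR2. For IFNGR1 the sign rested on how features were combined: the feature measured on the most arrays gave -0.29. IRF4 itself was 0.55 ± 0.24 (SE, limma adjusted p = 0.341) between the windows, so the knockdown was shallower at days 4-5.

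Hairpin 2046 at day 4 could be set side by side in 3 lines, with the H929 arrays averaged. The mean over the lines was tested against 0, so that a dye effect of the single orientation stays in the value. Of 52 genes, 33 were positive with a median of 0.141, against 53.6% of all genes and a median of 0.029, and the 20 effectors had 15 positive and a median of 0.274. No gene passed limma's adjusted threshold (0.0% of 5134). At an unadjusted limma p under 0.05, 5 of 52 were higher (EIF2AK2, IFI35, IFITM1, ISG15 and STAT5A) where 6.78% of all genes were. JAK1, 1 of 52, was lower where 8.24% were. These calls are against 0 and not against uninduced arrays. In KMS12 series 2046, JAK1 read -0.47 both uninduced and at day 4.

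ISG15 led the lines with 0.89 and 1.22 on the H929 arrays, 0.92 in SKMM1 and 0.52 in KMS12 at day 4 of series 2046. Its mean was 0.83 ± 0.19 (SE, limma adjusted p = 0.291). EIF2AK2 averaged 0.64 ± 0.21 (SE, limma adjusted p = 0.295), IFITM1 0.60 ± 0.19 (SE, limma adjusted p = 0.293), and IFI35 0.60 ± 0.21 (SE, limma adjusted p = 0.299). STAT5A averaged 0.56 ± 0.22 (SE, limma adjusted p = 0.322) and JAK1 -0.62 ± 0.18 (SE, limma adjusted p = 0.291). Of 44 genes with a value on all 4 arrays, 9 were above 0 on each (IFI30, IFI35, IFI6, IFIT3, IFITM1, IRF3, ISG15, SOCS3 and SP110) where 20.6% of all genes were. JAK1, PARP4 and SOCS1 were below 0 on each, 3 of 44 where 15.6% of all genes were. The share above 0 (20.5%) is close to the background, and the share below (6.82%) is less than it. With H929 and SKMM1 alone, 4 of 53 genes of the set (7.55%) passed limma's adjusted threshold: TRIM37 at 1.11 (adjusted p = 0.0208), ISG15 at 0.99 (0.0237), EIF2AK2 at 0.85 (0.0387) and PARP14 at 0.80 (0.0431). Under that setting 718 of all 5328 genes passed (13.5%), so the share of the set lies below the background, and those 4 calls rest on leaving out the KMS12 array.

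**Figure D4:**
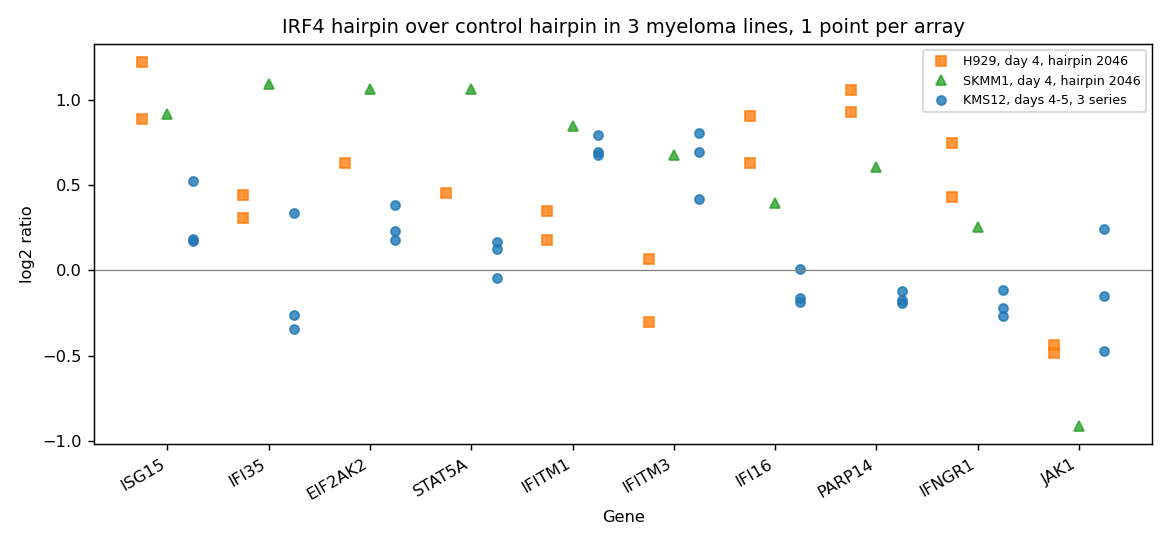
Log2 ratio of IRF4 hairpin over control hairpin (vertical axis) for 10 genes (horizontal axis) in H929 at day 4, SKMM1 at day 4 and KMS12 at days 4-5, 1 point per array. ISG15 and PARP14 are higher in H929 (0.89 and 1.22, and 0.93 and 1.06) than on all 3 KMS12 arrays, whereas IFITM3 is higher in KMS12.

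The H929 ratios at day 4 were also set against those of KMS12 at days 4-5. H929 had no uninduced array, so a difference between the lines present before induction stays in the value. The IRF4 ratio was lower in H929 by -1.14 ± 0.27 (SE, limma adjusted p = 0.191), and 2 of the 3 KMS12 arrays carried another hairpin series. Of 45 genes tested, 23 were positive with a median of 0.006, against 52.2% of all genes and a median of 0.028. None passed limma's adjusted threshold, where 0.021% of all genes did. At an unadjusted limma p under 0.05, 4 of 45 were higher in H929 (IFI16, IFNGR1, ISG15 and PARP14) where 5.65% of all genes were, and 1 of 45, IFITM3, was lower where 8.09% were.

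IFI16, the nuclear DNA sensor, stood at 0.63 and 0.91 in H929, and in KMS12 it measured -0.31, -0.03 and -0.38 on the uninduced arrays, -0.52, -0.25 and -0.51 at days 2-3, -0.16, 0.01 and -0.18 at days 4-5, and -0.63 at day 7. The SKMM1 value was 0.39. The H929 minus KMS12 difference was 0.88 ± 0.22 (SE, limma adjusted p = 0.196), although its 4 features disagreed in KMS12 at days 2-3, from -1.20 to 1.46. PARP14, a STAT6 cofactor, stood at 0.93 and 1.06 in H929, 0.61 in SKMM1, and in KMS12 it measured -0.40, 0.13 and -0.23 on the uninduced arrays, 0.19, 0.43 and -0.60 at days 2-3, -0.17, -0.12 and -0.19 at days 4-5, and -0.53 at day 7. Its difference was 1.16 ± 0.31 (SE, limma adjusted p = 0.203), 2.23-fold. The 2 H929 values came from different features, 1 on each repeat. In KMS12 series 2046 these features read -1.61 and 0.41 at day 2, and -0.65 and 0.26 at day 4. ISG15 gave 0.76 ± 0.29 (SE, limma adjusted p = 0.295), IFNGR1 0.79 ± 0.23 (SE, limma adjusted p = 0.235), and IFITM3 -0.76 ± 0.31 (SE, limma adjusted p = 0.316). IFITM1 gave -0.46 ± 0.25 (SE, limma adjusted p = 0.457).

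Before induction no gene departed from 0 by limma's adjusted threshold (0.0% of 6696, and 0 of 58 in the set). The median of the set on those arrays was -0.132, against -0.111 for all genes.

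Genes whose promoter holds the response element core were compared with the others as a description. At days 2-3, 14 of 15 with the core were positive with a median log2 difference of 0.354, and 20 of 26 without it with a median of 0.189. At days 4-5, 11 of 15 with the core were positive with a median of 0.183, and 23 of 28 without it with a median of 0.215. In the 3 lines the medians were 0.158 with the core (16 genes) and 0.178 without it (24 genes). The order of the medians thus changed between the windows.

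A list of other genes of the interferon pathway was drawn from general knowledge, with earlier results of these data known. Of its 91 genes, 50 could be tested at days 2-3. Of these, 36 (72.0%) were positive with a median of 0.173, against 58.3% of all genes. At an unadjusted limma p under 0.05, 10 (20.0%) were higher, against 9.85% of all genes, and 3 (6.0%) were lower, against 11.6%, and none passed the adjusted threshold. At days 4-5, 34 of 53 (64.2%) were positive with a median of 0.189, against 63.1% of all genes, with 5 (9.43%) higher against 5.67%, 2 (3.77%) lower against 1.09% and none past the adjusted threshold. In the 3 lines 28 of 48 (58.3%) were positive with a median of 0.068, against 53.6% of all genes, with 7 (14.6%) higher against 6.78%, 1 (2.08%) lower against 8.24% and none past it.

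The leading genes of that list at days 2-3 were CXCL9, CIITA and PTPN2. CXCL9, an interferon-gamma-induced chemokine, was 1.37, 0.90 and 0.56 at days 2-3 and -0.36 and -0.94 on 2 uninduced arrays, a difference of 1.59 ± 0.36 (SE, limma adjusted p = 0.127). CIITA, the activator of HLA class II genes and also a marker of earlier B cells, was 1.09, 0.29 and 0.34 at days 2-3 and -1.45, -0.08 and -0.72 uninduced, a difference of 1.32 ± 0.34 (SE, limma adjusted p = 0.127). PTPN2, a phosphatase that acts on JAK and STAT proteins, was -0.76, -1.17 and -0.40 at days 2-3 and 0.28, -0.08 and 0.34 uninduced, a difference of -0.95 ± 0.25 (SE, limma adjusted p = 0.127). All 3 showed groups without overlap, 2 higher and 1 lower, but they were picked for the smallest p in this comparison. Of all genes with a value on every uninduced and days 2-3 array, 14.3% were wholly higher and 17.6% wholly lower. CXCL9, with 2 uninduced values, is not among the genes of that count. CCL5, another chemokine, had a mean difference over both windows of 0.71 ± 0.21 (SE, limma adjusted p = 0.319), next to 1.17 ± 0.29 (SE, limma adjusted p = 0.319) for CIITA and 1.15 ± 0.32 (SE, limma adjusted p = 0.319) for CXCL9.

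At days 4-5 the leading genes were LAP3, PTPN6 and NMI. LAP3, an aminopeptidase, was 0.23, 0.65 and 0.55 at days 4-5 and -0.83, -0.74 and -0.71 uninduced, a difference of 1.24 ± 0.22 (SE, limma adjusted p = 0.717). PTPN6, the phosphatase SHP-1, was -1.15, -0.58 and -0.86 at days 4-5 and -0.19, 0.06 and -0.08 uninduced, a difference of -0.79 ± 0.23 (SE, limma adjusted p = 0.717). NMI, which binds IFI35 and STAT proteins, was 0.40, 0.78 and 0.70 at days 4-5 and 0.15, -0.32 and -0.16 uninduced, a difference of 0.74 ± 0.23 (SE, limma adjusted p = 0.717). In the lines, NCOA7, a nuclear receptor coactivator with an interferon-inducible form, averaged 0.82 ± 0.25 (SE, limma adjusted p = 0.292). The cytokine IL15 averaged 0.63 ± 0.20 (SE, limma adjusted p = 0.293) there and the mitochondrial kinase CMPK2 0.68 ± 0.21 (SE, limma adjusted p = 0.293). Each was above 0 on all 4 arrays, where 20.6% of all genes were. These genes too were picked for the smallest p in the comparison.

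Marker lists of other cell types had positive medians at days 2-3 as well. Of 22 listed earlier B cell markers, 14 to 20 had a value on a KMS12 array, and their median ran at -0.49, -0.05 and -0.52 on the uninduced arrays, 0.39, 0.26 and 0.07 at days 2-3 and 0.26, 0.21 and -0.10 at days 4-5, and 15 of 17 tested were positive at days 2-3 with a median of 0.548. T cell markers gave 7 of 8 positive with a median of 0.343, erythroid and stromal markers 6 of 6 with a median of 0.592, and myeloid markers 3 of 5 with a median of 0.112. Plasma cell markers gave 3 of 10 positive with a median of -0.381. None of these genes passed limma's adjusted threshold. The earlier B cell, erythroid and stromal medians lay above the 0.368 of the effectors, and their part in the effectors' values was not tested. The lines hold no other cells of the marrow, so these lists do not count cells of other types. In bulk RNA, a change in a part of the cells and a smaller change in all of them cannot be told apart.

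**Figure D5:**
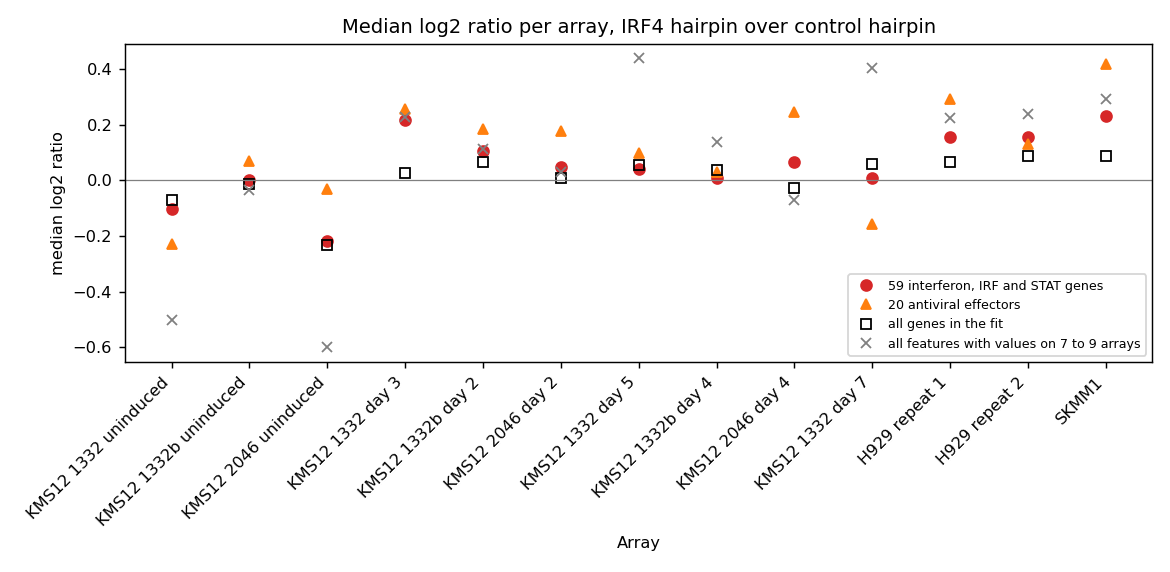
Median log2 ratio (vertical axis) per array (horizontal axis) of the 59 genes (circles), the 20 antiviral effectors (triangles), all genes in the fit (squares) and all features with values on 7 to 9 arrays (crosses). The series 2046 uninduced array is low for the set (-0.22) and for all genes (-0.23), and the effectors are highest in SKMM1 (0.42).

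By array, the median of the effectors was -0.23, 0.07 and -0.03 uninduced, 0.26, 0.18 and 0.18 at days 2-3, 0.10, 0.03 and 0.24 at days 4-5, and -0.16 at day 7. It was 0.29 and 0.13 in H929 and 0.42 in SKMM1. The median of all genes was -0.07, -0.01 and -0.23 uninduced, 0.03, 0.07 and 0.01 at days 2-3, 0.05, 0.04 and -0.03 at days 4-5, and 0.06 at day 7. The effectors' median exceeded that of all genes on 10 of the 13 arrays, the uninduced arrays of series 1332b and 2046 among them. It did not on the uninduced and day 7 arrays of series 1332 and on day 4 of series 1332b.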

How the data were processed

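Ratios of 2 colours were read from 1 table of 15246 features by 13 arrays deposited by the authors, taken as log2 of IRF4 hairpin (Cy5) over control (Cy3), per the labels. The log base and the steps of normalization, background correction and spot filtering remain not given in the sources used here. There were no dye swaps. The lowest correlation between arrays, -0.33, joined the series 2046 uninduced array and SKMM1, and the stated direction was kept. Platform annotation gave 10169 features 1 symbol, 4 several and 5073 none, and 10128 were matched to RefSeq by gene identifier.

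Each array was centred on the median of 6879 widely measured features. Features on at least 7 arrays were averaged per gene. Group means were estimated by limma 3.58.1 (R 4.3.3, two-sided, Benjamini-Hochberg adjustment over all genes tested, threshold 0.05), with at least 2 values per group, and the 3 lines were fitted with 1 value per line. The fit was tested on simulated data. The members and lists were chosen with earlier results of these data known. Every member could be named; values on every array were given for the receptor, JAK, STAT, IRF and SOCS genes and for the members with the smallest p in each comparison (6, or 4 between windows and between lines), and 3 other pathway genes per comparison by the same rule.

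Culture series were checked for pairing, by the construct number in the labels. Deviations from the group means of the same series correlated at 0.14 to 0.24 between uninduced and days 2-3 and at 0.13 to 0.25 between uninduced and days 4-5. Series thus pair the uninduced with the induced arrays. Between days 2-3 and days 4-5 the same series gave 0.36 (1332), -0.1 (1332b) and -0.07 (2046). Series 2046 at days 2-3 with 1332b at days 4-5 gave 0.42, so the induced windows were not paired throughout. The number of arrays limits the precision. Alternatives were other centrings, a stricter feature filter, 1 feature per gene, array weights, series as a block and each array left out.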

Additional observations from a re-analysis of the deposited data

Results flagged for a closer look

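Among the 7 genes with too few values for the tests, IFI44 and OAS3 had a feature with 2 or more induced values, all above its uninduced ones. IFI44, an interferon-induced gene, had log2 ratios from 0.30 to 1.07 on 4 induced arrays (KMS12 1332b and 2046 at day 4, SKMM1 and H929 repeat 1) and -0.25 on the 1 uninduced array with a value. A feature of OAS3, a relative of OAS1, had 0.76 and 1.21 on 2 induced arrays of series 1332b, and 0.74 and -0.39 on 2 uninduced arrays, so its lowest induced value lay just above the highest uninduced one. A feature of OAS2 (-0.465 on 1 induced array, -0.475 as its highest uninduced value) had the same order. So did TRIM56 (0.968 on 1 induced array, 0.064 on 1 uninduced array). None of these differences was tested, and the share of all sparse features with this order was not counted.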

How the results depend on the processing

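Series 2046 at day 2 decided the counts at days 2-3: without that array limma called 427 genes against uninduced, and 1 gene of the set, IFITM1 (log2 difference 0.99, adjusted p = 0.023, over a range of 0.023 to 0.281 across its alternatives). Leaving out single arrays gave 0 to 427 genes and 0 to 1 of the set. Days 4-5 against days 2-3 gave 0 to 197 genes, the 197 without the same array. The 3 lines gave 0 to 718 genes and 0 to 4 of the set, the highest without the KMS12 array. H929 against KMS12 gave 0 to 4 genes with an array left out, the 4 without H929 repeat 2, and 0 without centring and 15 with array weights, none of them in the set. IFNGR1 between the windows turned to -0.29 with the feature measured on the most arrays. The causes were not tested. The replicate block (culture series) gave 0 genes in the 4 KMS12 comparisons, as without it, with 0 of the set, and changed no call. Of 852 alternative values, 786 were classed as unchanged. For single genes this meant the same direction and side of the threshold, and for counts an equal or similar number. For medians of the set it meant a shift smaller than the SD of the array medians. The set's median at days 2-3 stayed between 0.014 (no centring) and 0.25 (centring on features of all 13 arrays), and was 0.1 when features were centred by the number of arrays that measured them. At days 4-5 it lay between -0.02 and 0.215. Array weights and the block were not run for the 3 lines, and intensities were not used here, so signal over background is unknown.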

Other observations

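The other genes of these families with values on fewer than 7 arrays were IFI44L, OAS2, PARP16, PARP8 and TRIM56. PARP8 stood at 0.27 and -0.27 in series 1332b at days 2 and 4, 0.03 in series 2046 at day 4 and 0.27 on H929 repeat 2, next to -0.26 and -0.92 on 2 uninduced arrays. PARP16 stood between -0.99 and 0.10 on 4 induced arrays and at -0.09 and -0.96 on 2 uninduced arrays. OAS2 had a single feature value of -7.43 on the uninduced series 1332 array, far below its other values of -0.26 to -1.48. IFI44L had 1 value, -1.47, on the uninduced series 2046 array. TRIM56 stood at 0.97 in series 1332 at day 5 and at 0.06 in uninduced series 1332b.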
